A study of Mus musculus with 4 samples.

Results

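Interferon-high basal cells are the basal mammary epithelial cells with the most UMIs (unique molecular identifiers, 1 per captured RNA molecule) of 7 interferon-induced genes. A cell with at least 1000 UMIs was basal when its UMIs of Krt5, Krt14, Krt17 and Acta2 came to at least 5 and to more than 3 times its UMIs of Krt8, Krt18 and Krt19. The top 5% of these cells, taken over all 4 libraries together, were selected on the summed UMIs of Ifit1, Ifit3, Isg15, Ifi47, Iigp1, Gbp7 and Tgtp1 per 10000 UMIs of the cell, a sum called the score here. The rule chose 351 of 7028 basal cells, out of 18223 cells in all, and left 6677 other basal cells. Because these 7 genes chose the cells, their levels are given as a description and were not tested between chosen and other cells.

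The cells came from the fourth mammary glands of FVB mice of the genotype Tfap2cfl/fl / Krt5-CreERT2, in which 4-hydroxytamoxifen (4OHT) activates a Cre recombinase made under the Krt5 promoter. All mice carried both alleles, and those given corn oil, the vehicle, are the controls. Dosing began at 4 weeks and the glands were taken at 9 weeks. Each group has 2 libraries, made with 10x Genomics 3′ chemistry, with total UMI counts between 17351950 and 22017878. The study set out to examine the loss of Tfap2c, which encodes the transcription factor AP-2γ, in mammary stem cells. The labels give the dosing as 5 days in one field and as 1 week in another. Values for the 4 libraries are given below in the order corn oil replicate 1, corn oil replicate 2, 4OHT replicate 1 and 4OHT replicate 2.

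Tfap2c (ENSMUSG00000028640) was checked first. In all basal cells it stood at 389, 285, 285 and 325 CPM (UMIs of the gene per 1000000 UMIs of the summed cells), and the ranges of the 2 groups overlapped. Its log2 fold change in the 4OHT-labelled against the corn oil-labelled libraries was -0.081 (SE 0.25, edgeR quasi-likelihood test, adjusted p = 0.999). The targeted gene thus did not check the labels, and a 3′ count can include transcripts that lost an internal exon. Below, groups are named by their labels alone, as 4OHT-labelled and corn oil-labelled libraries.

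Basal cells form the outer, contractile layer of the mammary duct and carry keratins 5, 14 and 17 with smooth muscle actin. In the interferon response, type I interferons bind Ifnar1 and Ifnar2, type III interferons bind Ifnlr1 and Il10rb, and type II interferon binds Ifngr1 and Ifngr2. JAK kinases then phosphorylate STAT proteins. A complex that holds STAT2 and IRF9 binds the interferon-stimulated response element, while STAT dimers bind gamma-activated sites. The induced genes block viral replication, sense viral nucleic acid, present antigen and dampen the signal again.

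Most basal cells carried no UMI of the 7 genes, and those that did formed a low and a high range of scores. No UMI of the 7 was found in 5636 basal cells, which is 80.2% of them. A score above 0 and up to 10 was seen in 760 cells. Scores above 10 and up to 20 were seen in 140 cells, above 20 and up to 40 in 160, above 40 and up to 80 in 192, and above 80 in 140. The lowest chosen score was 37.94 and the highest score left out was 37.61. The 10 cells just inside the limit ran from 37.94 to 38.74 and the 10 just outside from 36.4 to 37.61, so the limit runs through the high range and not along a gap. In the chosen cells the score had a median of 71.1 and a maximum of 337, from between 7 and 210 UMIs of the 7 genes in a cell with a median of 31.

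**Figure D1:**
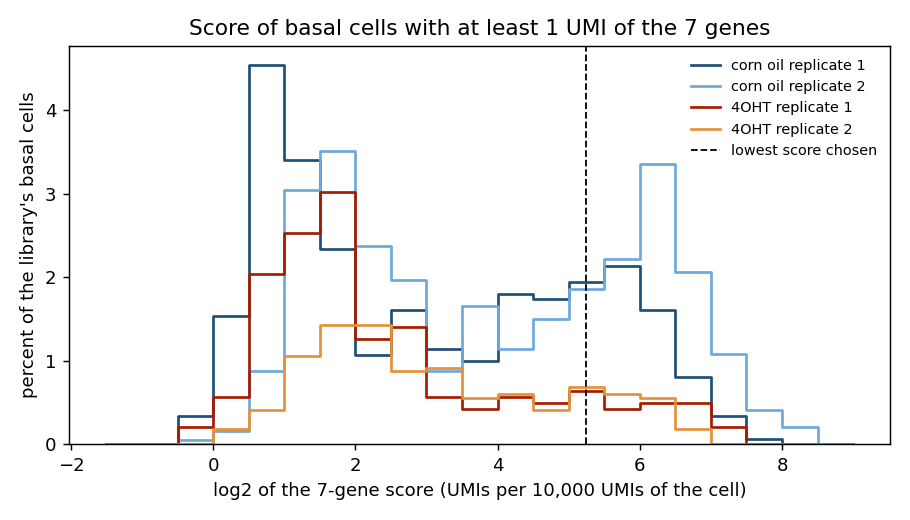
Distribution of the 7-gene score over basal cells with at least 1 UMI of the 7 genes, as a percent of all basal cells of each library (y axis), against log2 of the score (x axis). The dashed line is the lowest chosen score, 37.94; the corn oil-labelled libraries have a second rise around it and the 4OHT-labelled libraries are lower above a log2 score of 4.

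Of the 7 genes, Ifit1 and Ifit3 encode proteins that bind foreign RNA, and Isg15 encodes a ubiquitin-like protein that is joined to other proteins. Ifi47, Iigp1, Gbp7 and Tgtp1 encode interferon-inducible GTPases, which act on the membranes around pathogens inside a cell. Ifit1 stood at 1790, 3025, 2691 and 1891 CPM in the chosen cells and at 35.1, 46.5, 15.9 and 16.8 CPM in the other basal cells. Isg15 stood at 1953, 2182, 2530 and 2110 CPM against 95.2, 103, 54.4 and 39.2 CPM. Iigp1 stood at 1091, 696, 825 and 397 CPM against 26.0, 16.4, 7.94 and 4.03 CPM. The antiviral genes and the GTPase genes were thus both high in the chosen cells of each library, as the rule requires of their sum but not of each gene. UMIs of both kinds were present in 348 of the 351 cells, and the other 3 had antiviral UMIs alone. All 7 genes were detected in 101 chosen cells and 6 of the 7 in 121. The antiviral genes gave a median of 69.8% of a cell's score, and the library medians were 61.3%, 71.4%, 72.1% and 76.5%.

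The next values describe the choice and test nothing. Each cell's UMIs were split at random into 2 parts, and 351 cells were chosen on the first; 325 of them were also chosen on all UMIs, which contain that part. In the second part the 7 genes summed to 7283, 8755, 8008 and 5934 CPM in the chosen cells against 251, 269, 108 and 102 CPM in the others. Cells chosen on Ifit1, Ifit3 and Isg15 alone held 890, 652, 928 and 548 CPM of Gbp7 against 49.6, 28.6, 21.9 and 14.7 CPM in the rest. Cells chosen on the 4 GTPase genes alone held 1337, 2921, 2215 and 1934 CPM of Ifit1 against 42.1, 108, 14.2 and 29.7 CPM. Each kind of gene was high in the cells picked by the other kind, in all 4 libraries.

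The promoters of these genes are shown because interferon-activated factors are known to act through a shared motif in such promoters. Each line gives the 160 bases before the transcription start, from RefSeq on build GRCm38.p6, 5′ to 3′ on the gene's own strand. Capitals mark matches of GAAANNGAAA, the core of the interferon-stimulated response element, on either strand.
Isg15 (chr4:156200819-156200978, minus strand): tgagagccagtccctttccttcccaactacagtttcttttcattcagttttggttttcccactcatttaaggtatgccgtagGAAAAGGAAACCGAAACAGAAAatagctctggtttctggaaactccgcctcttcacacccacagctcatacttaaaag
Ifit1 (chr19:34640729-34640888, plus strand): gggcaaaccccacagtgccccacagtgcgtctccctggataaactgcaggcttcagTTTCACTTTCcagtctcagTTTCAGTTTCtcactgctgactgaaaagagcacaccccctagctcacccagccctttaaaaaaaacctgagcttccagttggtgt
Ifit3 (chr19:34583369-34583528, plus strand): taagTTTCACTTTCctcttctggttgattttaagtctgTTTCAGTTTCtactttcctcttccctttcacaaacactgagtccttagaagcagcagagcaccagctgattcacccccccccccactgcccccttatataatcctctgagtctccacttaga
Gbp7 (chr3:142530176-142530335, plus strand): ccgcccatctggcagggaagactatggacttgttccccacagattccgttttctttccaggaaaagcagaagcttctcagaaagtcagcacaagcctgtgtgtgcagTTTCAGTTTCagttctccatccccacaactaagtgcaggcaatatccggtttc
Tgtp1 (chr11:48992247-48992406, minus strand): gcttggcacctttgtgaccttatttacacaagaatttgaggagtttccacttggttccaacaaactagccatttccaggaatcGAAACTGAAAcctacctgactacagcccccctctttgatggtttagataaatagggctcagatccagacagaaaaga
Ifi47 (chr11:49076427-49076586, plus strand): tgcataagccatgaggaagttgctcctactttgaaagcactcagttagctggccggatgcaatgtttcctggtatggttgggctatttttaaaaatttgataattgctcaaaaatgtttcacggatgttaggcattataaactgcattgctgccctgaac
Isg15 has 3 overlapping matches, the first beginning 78 and the last 66 bases before the start. Ifit1 has 2, which begin 104 and 85 bases before it, and Ifit3 has 2, which begin 156 and 122 bases before it. Gbp7 and Tgtp1 have 1 each, and Ifi47 has none in this window. In RefSeq windows from 250 bases before to 50 after each start, 3.99% of 27025 genes had a match in at least 1 promoter. Among the genes tested between chosen and other basal cells, 3.75% of the 7306 that matched the RefSeq table had one. A match is a run of letters and not evidence of binding.

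Besides the genes that chose them, the chosen cells differed from the other basal cells of the same libraries in many other genes. The 7 genes of the score were left out of the fit, which tested 9328 others on UMIs summed over the cells of each library. In edgeR's quasi-likelihood test with library as a block, 1219 genes rose, which is 13.1% of those tested, and 1627 fell, which is 17.4%, at an adjusted p under 0.05. These shares are the background for the gene lists below. The calls depend on the scaling: when the sums were scaled to total UMIs alone, a setting added after the data were seen, the median of all genes moved up by 0.40 on the log2 scale, and 2586 genes rose and 919 fell. The share of calls that were higher was 42.8% with TMM factors and 73.8% with total UMIs. The CPM values printed here are scaled to total UMIs, so their ratios lie above the fitted fold changes by about that shift. Interferon-induced genes are known to be switched on together, so a rise of the interferon lists below is no evidence independent of the rule.

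Antiviral effectors rose almost as a whole. Of 64 listed genes 50 could be tested, and 48 rose with none falling; the median log2 fold change was 3.43, against -0.02 over all genes tested. Ifi27 and Slfn5 did not pass. Rsad2 encodes viperin, which makes a chain-terminating nucleotide. It stood at 298, 768, 818 and 205 CPM in the chosen cells and at 2.12, 9.79, 3.45 and 2.79 CPM in the others, a log2 fold change of 6.43 (SE 0.24, edgeR adjusted p = 3.04e-17). Ifit2, of the same RNA-binding family as Ifit1, stood at 176, 60.0, 524 and 35.4 CPM against 1.86, 1.22, 2.24 and 0.155 CPM. The chosen and other cells did not overlap for either gene, but the 4 libraries of chosen cells lay far apart. Oasl2, a relative of the enzymes that make the activator of RNase L, was even across libraries, at 608, 698, 797 and 559 CPM against 38.2, 45.3, 17.95 and 15.2 CPM, a log2 fold change of 4.15 (SE 0.20). Bst2, encoding tetherin, which holds budding virus at the membrane, was also even, at 981, 915, 1167 and 744 CPM against 92.1, 69.7, 48.3 and 29.5 CPM, a log2 fold change of 3.63 (SE 0.18). Mx1, a dynamin-like restriction factor, had a log2 fold change of 5.90, Cmpk2, a mitochondrial nucleotide kinase, 6.23, and Ifit3b 5.72, although Ifit3b is a near copy of Ifit3 and its counts are uncertain. In the same range were Oasl1 at 5.04, Plscr2 at 4.93, Sp100 at 4.75, Ddx60 at 4.29, Ube2l6, the ubiquitin-carrier enzyme that loads ISG15, at 4.28, Phf11d at 4.23 and Herc6, the mouse ISG15 ligase, at 4.12.

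All 11 interferon-inducible GTPases that could be tested rose, out of 22 listed, with a median log2 fold change of 4.97. Gbp2 stood at 796, 497, 1111 and 354 CPM in the chosen cells and at 23.5, 23.2, 19.9 and 8.69 CPM in the others, a log2 fold change of 4.71 (SE 0.19). Gbp5 had 5.67, Igtp 4.97, Irgm2 4.61 and Irgm1 4.33. Tgtp2 had 6.20 and Gm4951 5.18, but both have close copies among the genes of the score, so their counts are uncertain. The predicted gene 9930111J21Rik2 had a log2 fold change of 4.89. With total-UMI scaling 49 of the 50 antiviral effectors and all 11 GTPases were higher.

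Promoter matches of GAAANNGAAA were unequal between the genes that rose and those that fell. A match was present in 81 of 959 genes that rose and had a RefSeq promoter, which is 8.45%, and in 41 of 1235 genes that fell, which is 3.32%. It was present in 12 of 13 matched GTPases of the list and in 23 of 53 matched antiviral effectors, counting members that were too low to test. Rsad2, Gbp2 and B2m, the light chain of MHC class I, are shown because each rose and has 1 match.
Rsad2 (chr12:26456453-26456612, minus strand): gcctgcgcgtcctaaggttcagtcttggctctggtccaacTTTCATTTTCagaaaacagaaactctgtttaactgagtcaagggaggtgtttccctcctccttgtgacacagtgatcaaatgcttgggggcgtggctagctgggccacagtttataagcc
Gbp2 (chr3:142620503-142620662, plus strand): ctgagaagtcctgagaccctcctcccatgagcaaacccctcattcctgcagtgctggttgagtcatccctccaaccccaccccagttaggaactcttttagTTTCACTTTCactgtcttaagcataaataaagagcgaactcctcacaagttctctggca
B2m (chr2:122147527-122147686, plus strand): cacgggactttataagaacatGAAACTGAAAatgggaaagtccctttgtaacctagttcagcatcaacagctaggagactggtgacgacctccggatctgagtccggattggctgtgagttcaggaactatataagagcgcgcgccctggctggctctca
The match begins 120 bases before the start in Rsad2, 59 in Gbp2 and 139 in B2m. TTCNNNGAA, the palindrome of gamma-activated sites, reads the same on both strands and can overlap the first motif. Among genes with a promoter, it was present in 9.80% of those that rose and 7.37% of those that fell. The share was 8.08% over the genes tested and 9.55% over all genes with a promoter. These shares are a description of letters in a fixed window.

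The machinery that receives and relays interferon rose in part. Of the 6 receptor genes, 4 passed and none fell. Ifnar2, the signalling chain of the type I receptor, stood at 87.8, 89.4, 119 and 120 CPM in the chosen cells and at 30.1, 27.1, 42.1 and 32.1 CPM in the others, a log2 fold change of 1.25 (SE 0.19, edgeR adjusted p = 5.99e-06). Its partner Ifnar1 had a log2 fold change of 0.43 (adjusted p = 0.327). The type II chains Ifngr2 and Ifngr1 rose by 1.18 and 0.65, and Ifngr1 lost the call without corn oil replicate 2 (0.53, adjusted p = 0.167), without the library block (0.57, adjusted p = 0.10) and with the top 2.5% chosen (0.52, adjusted p = 0.155). Ifnlr1, the type III chain, had 1.38 at 6.99 to 14.2 CPM in the chosen cells, and it lost the call without corn oil replicate 1 (1.41, adjusted p = 0.15), corn oil replicate 2 (1.28, adjusted p = 0.182) or 4OHT replicate 2 (1.25, adjusted p = 0.0735). Il10rb, its partner, had 0.83 (adjusted p = 0.101), and 0.97 with a call without cells that have an endothelial, fibroblast or mural UMI. With total-UMI scaling all 6 were higher, Ifnar1 and Il10rb included.

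Of the 11 JAK, STAT and IRF genes tested, 6 rose and none fell. Irf7, the factor that amplifies type I interferon production, stood at 386, 430, 308 and 290 CPM in the chosen cells and at 31.5, 33.9, 12.1 and 10.7 CPM in the others, a log2 fold change of 3.64 (SE 0.19, edgeR adjusted p = 1.24e-14). The chosen and other cells did not overlap in Irf7. Irf9 and Stat2, whose products bind the response element together, had log2 fold changes of 2.43 and 2.36, Irf1 had 1.81 and Irf2 0.82. Irf3, which is present before infection and activated by phosphorylation, had 0.59, Jak1 0.23, Jak2 0.23, and Stat3 0.20, and none of these passed. Irf3, Jak1 and Stat3 passed with total-UMI scaling, and Irf3 also without 4OHT replicate 2 (0.76) and without cells that have an endothelial, fibroblast or mural UMI (0.80).

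Most nucleic acid sensors rose, and the genes listed as feedback inhibitors of the pathway did so in part. Of 10 sensors tested 8 rose: Ifih1 (MDA5), with a log2 fold change of 4.59, Tlr3 with 3.76, Zbp1 with 3.74, Dhx58 with 3.74, the RNA-activated kinase Eif2ak2 with 3.50, Ddx58 (RIG-I) with 2.89, Tmem173 (STING) with 1.91 and the adaptor Myd88 with 1.22. The adaptors Mavs (0.76, edgeR adjusted p = 0.387) and Ticam1 (-1.5, adjusted p = 0.0962) did not pass. Of 10 tested genes listed as feedback inhibitors 5 rose and 2 fell. A place on this list is not evidence that a gene inhibits the pathway. Usp18, which removes ISG15 and blocks Ifnar2, stood at 245, 327, 370 and 319 CPM in the chosen cells against 14.8, 17.7, 8.80 and 5.12 CPM, a log2 fold change of 4.32. Trim21 had 3.88, Rnf213 3.61, Socs1, which inhibits JAK kinases, 1.63 and Isg20 1.34. Ptpn2, a phosphatase that acts on JAK kinases, fell by 1.52 on the log2 scale. Socs3 had -0.72 (adjusted p = 0.028) but was higher in the chosen cells of corn oil replicate 1. It was not called with total-UMI scaling, without 4OHT replicate 1 (-0.35, adjusted p = 0.178) or without 4OHT replicate 2 (-0.50, adjusted p = 0.17).

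Antigen presentation by MHC class I and the secreted or surface ligands of the response rose as well. Of 21 class I genes tested 18 rose. B2m stood at 2950, 2139, 3361 and 1579 CPM in the chosen cells and at 710, 751, 593 and 449 CPM in the others, a log2 fold change of 1.54 (SE 0.15, edgeR adjusted p = 2.19e-09). The immunoproteasome subunits Psmb9, Psmb10 and Psmb8 had log2 fold changes of 3.54, 3.24 and 3.03, and H2-T22 had 3.05. The 2 that fell, Calr (-2.04) and Pdia3 (-1.37), encode chaperones of the endoplasmic reticulum (ER) that also load class I. Of the 9 class II genes only 2 could be tested, and Cd74, the invariant chain, fell by 1.78 on the log2 scale from levels of 20.3 CPM or less, with no call when cells were chosen on thinned counts (-1.01, adjusted p = 0.057) or as the top 2.5% (-1.08, adjusted p = 0.198). Of 9 chemokines and ligands 7 rose. Cxcl10, which draws T cells, stood at 414, 288, 1510 and 227 CPM against 4.77, 11.9, 3.45 and 2.79 CPM, a log2 fold change of 6.0 (SE 0.36). Tnfsf10 (TRAIL) had 5.33, Cd274 (PD-L1) 3.58 and Ccl2 2.79. Of 17 cell death genes 9 rose and 1 fell (12 and 0 with total-UMI scaling), with Mlkl, the effector of necroptosis, at 2.91 with no UMI in the chosen cells of 4OHT replicate 2, Casp1 at 2.64 and Daxx at 2.12. Of 16 NF-kB targets 2 rose and 5 fell (4 and 3 with total-UMI scaling), with Nfkbie at 1.36, Cxcl2 at -3.03 and Rel at -1.85. Without corn oil replicate 2, Nfkbie (1.09, adjusted p = 0.123) and Rel (-1.5, adjusted p = 0.141) lost their calls. Cxcl2 lost its call with cells chosen on thinned counts (-0.37, adjusted p = 0.517) and without cells that have an endothelial, fibroblast or mural UMI (-0.88, adjusted p = 0.153).

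**Figure D2:**
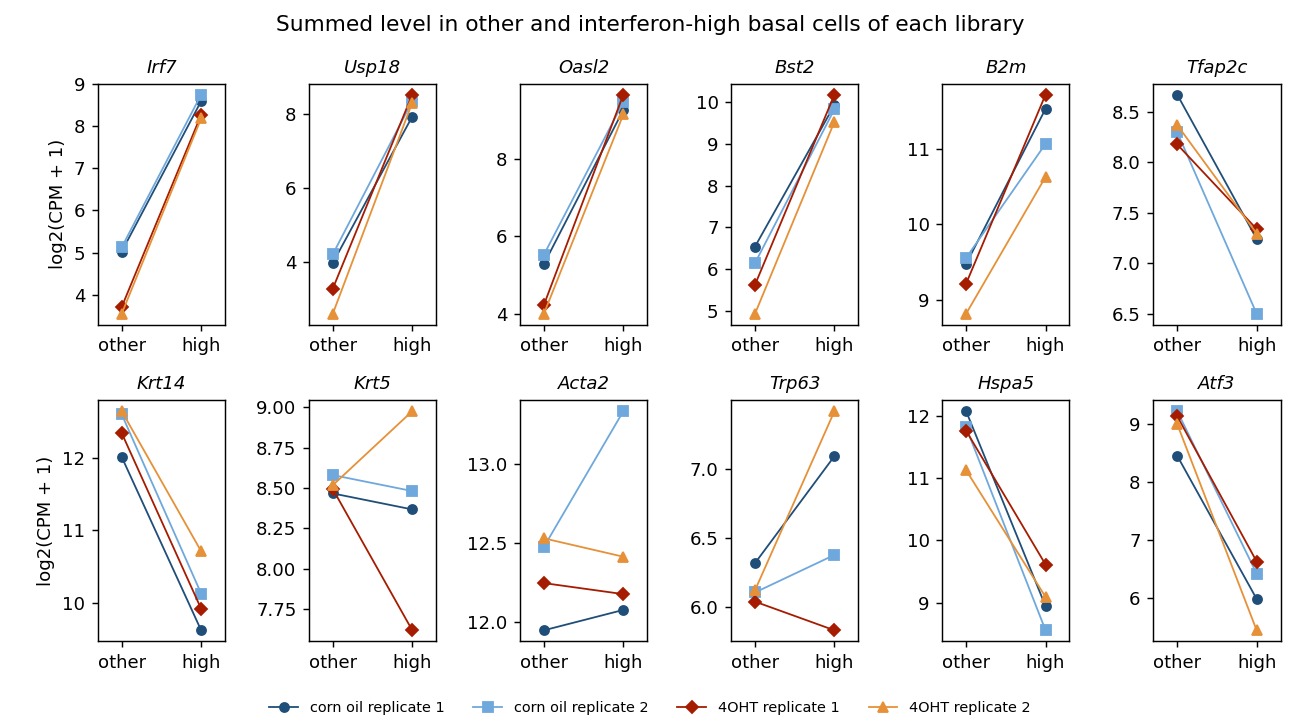
Level of 12 genes outside the score, as log2(CPM + 1) (y axis), in the other basal cells and in the chosen cells (high), with 1 line per library. All 4 lines of Irf7, Usp18, Oasl2, Bst2 and B2m go up and all 4 of Tfap2c, Krt14, Hspa5 and Atf3 go down, while those of Krt5, Acta2 and Trp63 cross.

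The response was not equally spread within the chosen cells. Cxcl10 was detected in 70 of 351, and the top 35 cells held 93.8% of its 709 UMIs. One cell of 4OHT replicate 1 held 91 of that library's 216 UMIs of Cxcl10, and one of corn oil replicate 1 held 110 of 226. Rsad2 was detected in 179 cells, whose top 35 held 63.8% of its UMIs, and Ifit2 in 88. Bst2 was the most even of these, with UMIs in 313 cells and 31.3% of them in the top 35. Irf7 was detected in 252 cells and Gbp2 in 239. The level of Cxcl10 in 4OHT replicate 1, high above the other 3 libraries, thus rests on few cells.

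Krt14 and Krt17 fell, and Krt5 and Acta2 had smaller values that depended on the setting. All 4 genes are part of the basal gate, which chosen and other cells passed alike. Krt14 stood at 785, 1116, 964 and 1671 CPM in the chosen cells and at 4117, 6185, 5174 and 6378 CPM in the others, a log2 fold change of -2.74 (SE 0.13, edgeR adjusted p = 1.6e-15). Krt17 stood at 598, 1050, 1076 and 1586 CPM against 3411, 4588, 2885 and 4481 CPM, a log2 fold change of -2.33. Both were lower in every library with no overlap. Krt5 stood at 329, 357, 196 and 503 CPM against 353, 382, 360 and 366 CPM, a log2 fold change of -0.53 (adjusted p = 0.0117), and was not called with total-UMI scaling or without 4OHT replicate 1 (-0.37, adjusted p = 0.0804). Acta2, smooth muscle actin, stood at 4323, 10340, 4633 and 5459 CPM against 3953, 5699, 4863 and 5918 CPM, and its log2 fold change of -0.23 (adjusted p = 0.252) became 0.21 with total-UMI scaling. It was called without corn oil replicate 2 (-0.49, adjusted p = 0.0123) and without a filter on low counts (-0.32, adjusted p = 0.0329). Trp63, which encodes the p63 factor of basal cells, had 0.19 (adjusted p = 0.516), and 0.61 with a call under total-UMI scaling. Krt15 fell by 4.58 on the log2 scale and Igfbp3, which binds insulin-like growth factors, by 2.85. Of the 29 basal identity genes tested 5 rose and 11 fell, and with total-UMI scaling 11 rose and 8 fell; of the 25 outside the gate 5 rose and 8 fell. The label of basal cells holds in part: 6 chosen cells, 1.71%, had no UMI of Krt5, Krt14 or Krt17, against 21 others, 0.31%. A Krt5 UMI was found in 65.2% of the chosen cells and 55.6% of the others, with depth not made equal. Among 17 luminal markers 1 rose and 9 fell (3 and 6 with total-UMI scaling). Krt8, Krt18 and Krt19 are 3 of the 9 and belong to the gate. It limits their UMIs against the sum of Krt5, Krt14, Krt17 and Acta2, in chosen and other cells alike. Of the 14 outside the gate 6 fell, Krt7 by 2.19 on the log2 scale, while Ly6a (Sca-1), itself induced by interferon, had 2.21.

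Tfap2c was lower in the chosen cells. It stood at 150, 89.4, 161 and 156 CPM in them and at 406, 313, 288 and 329 CPM in the other basal cells, with no overlap between the 2 sets of 4 values. The log2 fold change was -1.78 (SE 0.17, edgeR adjusted p = 2.75e-09), and over 22 alternatives it ran from -2.10 to -1.10. The call was lost in 1 of them, which left out cells with any luminal keratin UMI (-1.10, edgeR adjusted p = 0.15). There the top 5% was chosen anew and held 33 cells, 25 of them in corn oil replicate 2 and none in 4OHT replicate 1. Of its relatives, Tfap2a had 0.66 (adjusted p = 0.0114), with the call lost without corn oil replicate 2 (0.62, adjusted p = 0.0865) or 4OHT replicate 1 (0.49, adjusted p = 0.066), and Tfap2b -0.27 (adjusted p = 0.353). In cells thinned to 1000 UMIs a Tfap2c UMI was found in 21.2%, 8.46%, 23.1% and 10.3% of the chosen cells and in 27.6%, 21.8%, 19.4% and 24.1% of the others, lower in 3 of the 4 libraries. In 4OHT replicate 1, with 26 chosen cells, the shares went against the CPM and no order was read from them. The same share in cells of neither gate with 2 or more UMIs of the endothelial genes Pecam1 and Cdh5 was 0%, 0%, 5.13% and 8.40%, in 8, 61, 39 and 119 cells.

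Chaperones of the ER and stress-response genes fell. All 14 ER chaperone genes tested were lower, with a median log2 fold change of -2.40, and all 14 remained lower with total-UMI scaling. Hspa5, encoding the ER chaperone BiP, stood at 492, 376, 783 and 545 CPM in the chosen cells against 4315, 3603, 3470 and 2236 CPM, a log2 fold change of -3.11 (SE 0.17). Sdf2l1 had -4.71, Creld2 -3.48 and Ddit3, the stress factor CHOP, -3.20. Of 25 immediate early and dissociation stress genes 18 fell and 2 rose (17 and 2 with total-UMI scaling), with a median of -1.36. Hspa1a, an inducible cytosolic chaperone, stood at 209, 181, 349 and 191 CPM against 1490, 1761, 1821 and 1109 CPM, a log2 fold change of -3.22. Atf3 had -3.16 and Nr4a1 -2.97, and Klf2, a zinc finger factor, rose by 2.5. Other genes among the 15 with the largest falls were Ero1l, an oxidase of the ER, at 159, 71.1, 245 and 510 CPM against 3073, 2233, 1474 and 1899 CPM (-3.93), Krt23 (-4.64), Arl4d (-4.22), Aldh1l2, a mitochondrial folate enzyme (-4.03), Plet1 (-3.92), Espn (-3.89), the sterol enzyme Msmo1 (-3.88) and Stc2 (-3.74). Slc2a1, the glucose transporter GLUT1, had -3.32. Mgarp had 1 UMI in all chosen cells, which put its CPM 75.2-fold lower than in the others (95% counting interval 13.5 to 2970). With 2 or 3 UMIs, Edn2 was 59.9-fold lower (16.5 to 495), Angptl6 30.8-fold (10.5 to 149), the water channel Aqp3 23.2-fold (7.93 to 113) and Il23a 23.2-fold (7.90 to 112).

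**Figure D3:**
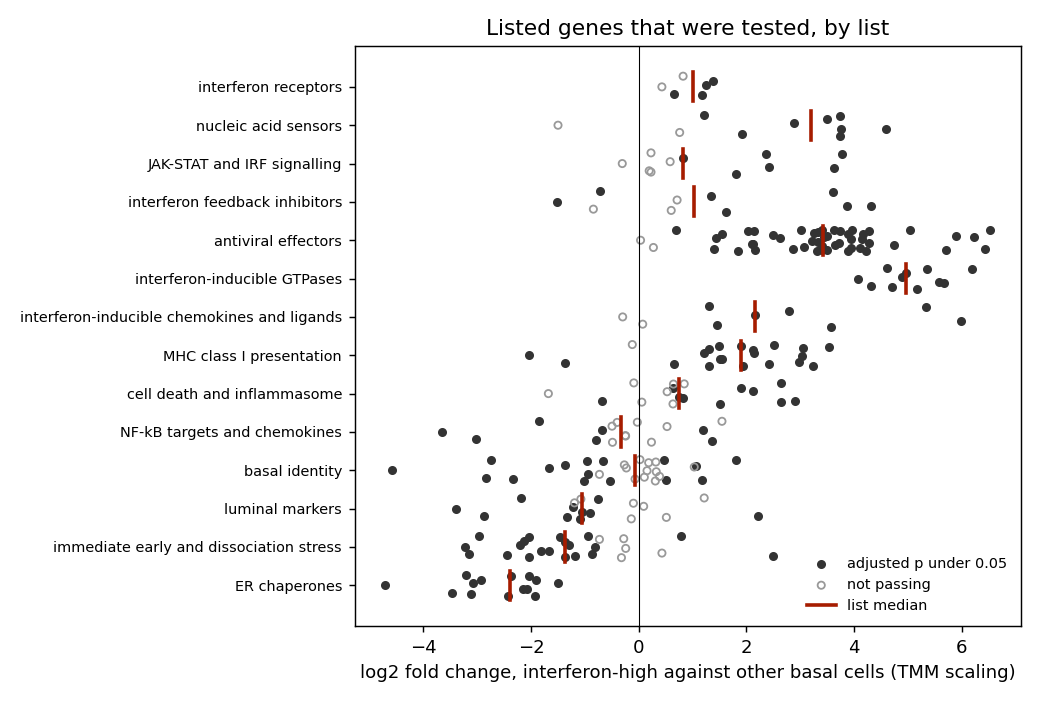
Log2 fold change of chosen against other basal cells (x axis) for the tested genes of 14 lists (y axis), with filled points at an adjusted p under 0.05, open points not passing and a bar at the list's median. Antiviral effectors lie to the right with a median of 3.43 and ER chaperones to the left with a median of -2.40.

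Chosen cells came mostly from basal cells with few ER chaperone UMIs. When basal cells were ordered by the summed share of these genes and cut into 5 groups of equal size, the chosen cells made up 13.0% of the lowest group (183 of 1406), then 9.54%, 2.13% and 0.285%, and none of the 1406 cells of the highest, which allows a share of up to 0.213%. Ordered by the stress genes in the same way, from low to high, the shares were 8.18%, 9.54%, 5.33%, 1.78% and 0.142%. Tfap2c moved with the chaperones also in basal cells that were not chosen: in the lowest group it stood at 219, 122, 153 and 142 CPM and in the highest at 512, 532, 444 and 468 CPM. Chosen cells of the lowest group held 159, 84.1, 137 and 164 CPM, lower than the others of that group in 3 libraries and higher in 4OHT replicate 2. Within that group the gap in Tfap2c was therefore smaller than over all basal cells, a description with no test. The ordering by stress genes looked different. In its next-to-lowest group, chosen cells held 121, 109, 133 and 163 CPM of Tfap2c and the others 469, 367, 330 and 419 CPM. In cells not chosen, Tfap2c stood at 399.5, 314, 389 and 336 CPM in the lowest stress group. It stood at 272, 161, 138 and 207 CPM in the highest.

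Cells ranking below the limit of the choice mostly lay between the chosen cells and those with no UMI of the 7 genes. In the 352 cells that ranked next, with scores from 6.76 to 37.6, Irf7 stood at 223, 235, 155 and 153 CPM, and in the 5636 cells with no UMI of the 7 genes at 5.58, 9.75, 3.35 and 3.46 CPM. Tfap2c stood at 195, 128, 186 and 157 CPM in the cells ranking next and at 433, 347, 289 and 342 CPM in those with no UMI. Krt14 stood at 1394, 1746, 2012 and 1476 CPM in the next cells against 4694, 7055, 5530 and 6674 CPM, and Hspa5 at 875, 645, 1180 and 889 CPM against 5010, 4175, 3689 and 2350 CPM. Krt14 in 4OHT replicate 2 did not lie between: the next cells were below the chosen ones, at 1671 CPM. On a log scale, for each of these genes the next 5% of cells lay nearer to the chosen cells than to the cells with no UMI, so the pattern does not begin at the limit. Cxcl14, a chemokine of basal cells, stood at 3206, 4381, 1558 and 3887 CPM in the chosen cells and at 1055, 1779, 1698 and 1973 CPM in the cells with no UMI, higher in the chosen cells in 3 of 4 libraries.

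**Figure D4:**
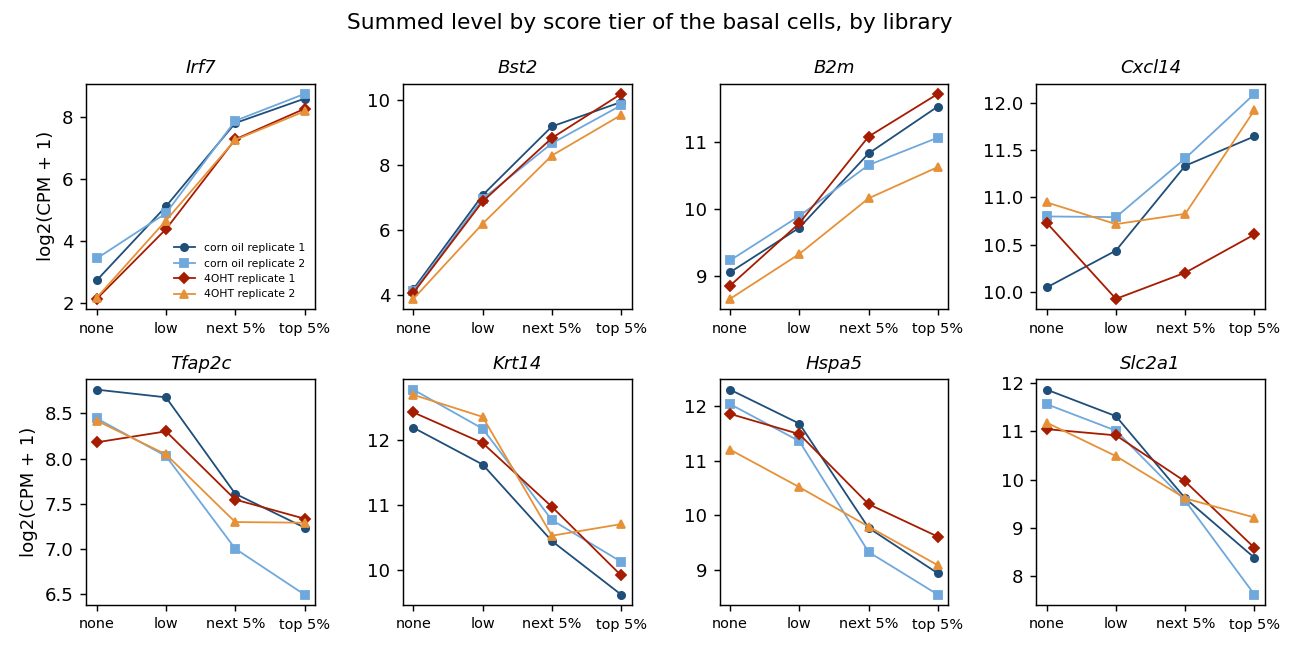
Level of 8 genes, as log2(CPM + 1) (y axis), in basal cells with no UMI of the 7 genes (none), with a low score, in the next 5% and in the top 5% (x axis), with 1 line per library. Irf7 goes from 3.35 to 9.75 CPM with no UMI to between 290 and 430 CPM in the top 5%, while Tfap2c, Krt14, Hspa5 and Slc2a1 end lower than they begin in all 4 libraries.

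Chosen cells were somewhat deeper than the other basal cells. They held little RNA of marker genes of other cell types, but a larger share of them than of the others had a UMI of such genes. Their median was 6067, 3856, 4944 and 3348 UMIs against 5079, 3064, 3838 and 2814 in the other basal cells, and their mitochondrial share 2.38%, 2.43%, 2.36% and 3.25% against 1.85%, 2.10%, 1.42% and 2.17%. Of 28 leukocyte markers 22 had no UMI in any chosen cell, among them Ptprc (CD45), for which 0 UMIs allow up to 1.82 CPM. Trbc2, a T cell receptor constant gene of the same list, had 76 UMIs in 61 chosen cells and a log2 fold change of 1.16 (edgeR adjusted p = 0.00162), not called without corn oil replicate 1 (0.96, adjusted p = 0.0695) or corn oil replicate 2 (1.13, adjusted p = 0.0545); it was named after its values were seen. A UMI of any of the 28 was found in 21.1% of the chosen and 15.5% of the other basal cells. Cells that have a UMI of Ptprc, Laptm5, Coro1a, Cd52, Rac2, Tyrobp or Fcer1g were then left out, and the top 5% was chosen anew. It held 350 cells, with 1243 genes higher and 1602 lower. The summed level of the 28 was 51.2, 67.4, 14.0 and 77.9 CPM in the chosen cells and 48.2, 64.0, 41.3 and 57.6 CPM in the others. Of 11 endothelial markers 3 were at 0, with sums of 27.5, 71.1, 27.95 and 56.7 CPM against 17.8, 55.6, 15.5 and 69.7 CPM. Pecam1, named after its values were seen, held 62 of the 85 endothelial UMIs of the chosen cells, in 57 cells. The 2 endothelial markers that could be tested did not pass. Of 11 fibroblast markers 4 were at 0, with sums of 80.5, 60.0, 112 and 42.5 CPM against 27.7, 90.7, 27.96 and 33.2 CPM, higher in the chosen cells in 3 of 4 libraries. Of the 2 fibroblast markers tested, Fbln1 was called higher, with 46 UMIs in 33 chosen cells, and 1 did not pass. A fibroblast marker UMI was found in 21.9% of the chosen and 9.21% of the other basal cells. For endothelial markers the shares were 20.5% and 11.5%, with depth not made equal. Cells that have an endothelial, fibroblast or mural UMI were also left out and the top 5% chosen anew. This gave 279 cells, with 1196 genes higher and 1529 lower than in the other basal cells left. The mural genes Pdgfrb, Notch3 and Rgs5, which also occur with Acta2 in vessel walls, had UMIs in 4 of the 26 chosen cells of 4OHT replicate 1 and in 1, 2 and 1 chosen cells of the other libraries. They summed to 1.83, 2.45, 69.9 and 28.3 CPM in the chosen cells and to 4.11, 1.92, 3.11 and 2.33 CPM in the others. No doublet caller was run. A barcode sequence found in more than 1 library occurred 155 times, in 6 chosen cells, and no chosen cell shared its barcode with another chosen cell.

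Transcripts of interferons themselves were nearly absent. Of 21 interferon genes in the annotation 16 had no UMI in any of the 18223 cells, and the others summed to 188 UMIs. Ifnb1 had 57 UMIs, 52 in luminal cells and none in basal cells, and by library they numbered 0, 35, 3 and 19. Ifnk, an epithelial type I interferon, had 116, of which 26 were in basal cells and 3 in chosen cells. Ifnk was the only one of the 21 with a UMI in the chosen cells.

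Luminal cells past the same score offered a comparison in another cell type, added after the data were seen. The lowest chosen score was passed by 176 of 6797 luminal cells. Against the other 6621 luminal cells, 678 of 9237 genes rose (7.34%) and 1150 fell (12.4%). Genes that rose in both comparisons numbered 353, which is 29.0% of the basal calls and 52.1% of the luminal ones, and 23 of the basal ones fell in luminal cells. Antiviral effectors rose in 49 of 51 tested, ER chaperones fell in 11 of 14 and stress genes in 18 of 23. Tfap2c had a log2 fold change of -0.089 (edgeR adjusted p = 0.875), Krt14 -0.13 and Krt17 0.017 in luminal cells, where none of the 3 passed. Of 22 luminal markers tested there, 6 rose, Cd14, Ltf and Csn3 among them, and 14 fell, with Elf5, Esr1, Pgr and Foxa1. The luminal cells past the limit thus also differed from the rest in luminal markers. The part of this in the other luminal values was not tested. Ccl2, which rose in basal cells, fell by 3.17 on the log2 scale in luminal cells. Whether these effects differ between the 2 cell types was not tested.

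Chosen cells made up a smaller share of the basal cells in the 4OHT-labelled libraries. They numbered 85 of 1496 basal cells in corn oil replicate 1, or 5.68% (95% Clopper-Pearson interval 4.56 to 6.98), and 201 of 1933 in corn oil replicate 2, or 10.4% (9.07 to 11.9). In the 4OHT-labelled libraries they numbered 26 of 1421, or 1.83% (1.20 to 2.67), and 39 of 2178, or 1.79% (1.28 to 2.44). The intervals, which cover counting error only, did not overlap between groups. The means were 8.04% ± 3.34 (SD, n = 2) and 1.81% ± 0.028 (SD, n = 2), a difference of -6.23 percentage points, with p = 0.33 in a two-sided exact permutation test, the smallest p that 2 libraries against 2 allow. The same order was seen with a lower limit, where scores above 10 were found in 12.0%, 15.9%, 4.15% and 3.90% of basal cells. Past the same limit lay 2.43%, 4.72%, 2.89% and 0.743% of luminal cells, where the groups overlapped, a difference of -1.76 percentage points (exact permutation p = 0.667). Cells of neither gate passed it in 11.0%, 17.2%, 5.00% and 4.20%. The libraries also differed in cells of neither gate with 3 or more leukocyte marker UMIs, which made up 0.228%, 1.28%, 1.05% and 0.129%, not in the order of the groups; their part in the shares was not tested.

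**Figure D5:**
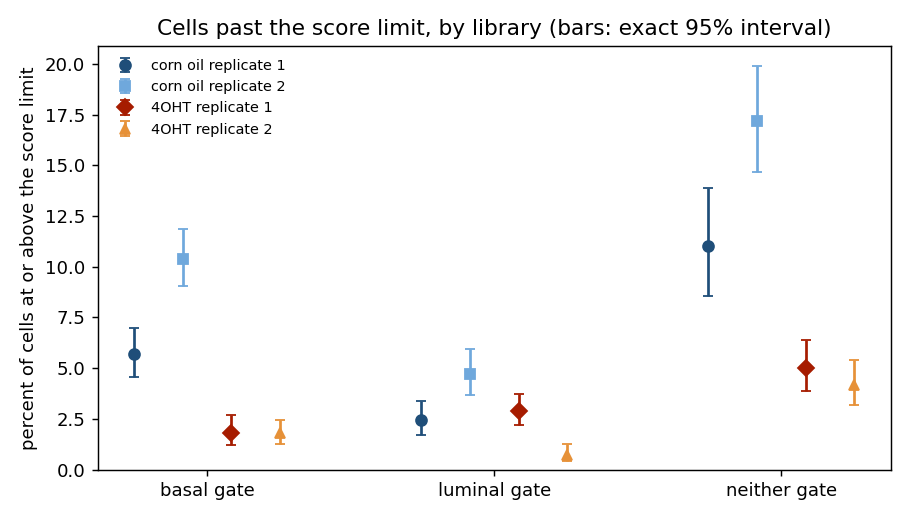
Percent of cells at or above the lowest chosen score (y axis) among cells of the basal gate, the luminal gate and neither gate (x axis), 1 point per library with its 95% Clopper-Pearson interval. Basal shares are 5.68% and 10.4% in the corn oil-labelled libraries against 1.83% and 1.79% in the 4OHT-labelled ones, while the luminal shares of the groups overlap.

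Summed over all basal cells, most interferon-list genes had a negative log2 fold change in the 4OHT-labelled libraries, although no gene passed the adjusted test. Of 10788 genes none had an adjusted p under 0.05 in edgeR. At an unadjusted p under 0.05 there were 465, with 235 lower in the 4OHT-labelled libraries (2.18%), and DESeq2 called 14 higher and 24 lower. Of 132 interferon-list genes outside the score, 60 were lower at an unadjusted p under 0.05, which is 45.5%. A negative log2 fold change was found for 114 of them, against 5600 of all 10788 genes. These lists were drawn up with the lower share already known and are no independent evidence. Irf7 stood at 55.5, 83.4, 19.2 and 16.7 CPM, a log2 fold change of -1.92 (SE 0.31, edgeR adjusted p = 0.604). It was called by the DESeq2 Wald test (adjusted p = 0.000572). The log2 fold change was -2.22 without corn oil replicate 1 and -1.92 without 4OHT replicate 1, fits that leave 1 library in a group. Oasl2 stood at 76.6, 127, 36.7 and 26.9 CPM. Of the 7 genes of the score, Iigp1 stood at 97.9, 101, 27.6 and 12.5 CPM (-2.30), and the other 6 had log2 fold changes from -2.72 for Tgtp1 to -1.54 for Isg15, none past the adjusted test. All 7 were called by the DESeq2 Wald test. Iigp1 had -2.38 without corn oil replicate 1 and -2.85 without 4OHT replicate 1. Without corn oil replicate 2, Ifit3 had -1.72 and Iigp1 -2.20. Over all genes, the smallest p belonged to Ctla2a, which stood at 0.87, 0.612, 14.3 and 12.9 CPM (edgeR adjusted p = 0.209). It was called by the DESeq2 Wald test, and its log2 fold change ran from 4.07 to 4.42 with 1 library left out. Npy, Csf3, Iigp1 and Ankrd1 followed.

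With the chosen cells removed, the interferon genes had a median difference nearer to 0. In the other basal cells 29 of 119 interferon-list genes, or 24.4%, were lower at an unadjusted p under 0.05, against 164 of 10599 of all genes (1.55%), and their median log2 fold change was -0.47. The same 119 genes, none of them of the score, had a median of -0.70 over all basal cells, where 54 were lower at that level. No gene passed the adjusted test, and 349 had an unadjusted p under 0.05. In luminal cells 16 of 136 genes outside the score, or 11.8%, were lower at that level, against 91 of 10821 of all genes. The 136 genes had a median of -0.29. Removing the top of a score also lowers what is left in the group that held more of it, so these medians are a description.

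Inside the chosen cells the interferon genes did not lean to either group. Of 109 tested, 54 were lower and 55 higher in the 4OHT-labelled libraries, with a median log2 fold change of 0.012. The choice itself sets a lower limit to the score in both groups, so this leaves only the range above it. Over all genes, 5 of 4106 passed (0.122%), all higher in the 4OHT-labelled libraries. Rarres2, which encodes chemerin, stood at 5.49, 11.0, 175 and 184 CPM, a log2 fold change of 4.29, and Ndufa4l2, a mitochondrial protein induced by low oxygen, at 5.49, 4.90, 112 and 113 CPM (4.35). Crip1 stood at 20.1, 40.4, 538 and 319 CPM (3.73), and the peptide hormone gene Adm at 225, 236, 985 and 913 CPM (2.02). Gm13889 had 4.40, and the adjusted p of the 5 ran from 0.0385 to 0.046. Their calls rest on few cells. No gene was called without the cells that have an endothelial, fibroblast or mural UMI, where Crip1 had 0.36 and Adm 2.0 (adjusted p = 0.0946), or without corn oil replicate 2 (Adm 2.05, adjusted p = 0.999).

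The gap between chosen and other cells differed with the label for 99 of 9328 genes (1.06%), 59 with a positive and 40 with a negative interaction. Of 128 interferon-list genes 7 had a positive interaction, with the chosen cells higher relative to the others under the 4OHT label, and 3 a negative one. Oasl2 had an interaction of 1.22 on the log2 scale (SE 0.27, edgeR adjusted p = 0.00104), Bst2 of 0.91 (SE 0.24) and Usp18 of 1.37 (SE 0.34). Without corn oil replicate 1 these had 1.22, 0.74 and 1.27, and without corn oil replicate 2 they had 1.21, 1.08 and 1.48, with no call in either case. For these 3 genes the other cells of the 4OHT-labelled libraries had the lower levels, while the chosen cells overlapped between groups. Socs3 had -2.07 (SE 0.31): it was higher in the chosen cells of corn oil replicate 1 and lower in those of both 4OHT-labelled libraries. Tfap2c had 0.50 (adjusted p = 0.746). The 4OHT-labelled libraries hold 26 and 39 chosen cells, which limits these comparisons.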

How the data were processed

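UMI counts per gene and cell were deposited as 10x matrices, 1 per library, with 31053 genes; per the submitters' processing notes the authors used Cell Ranger 3.0.1 and bcl2fastq with build mm10. The deposited counts had barcodes of called cells, of which 391 had under 1000 UMIs and were left out. For 4 libraries (3546, 4323, 4809 and 5545 cells) the UMIs of chosen and other cells were summed per library and expressed as CPM. Members and gene lists were chosen with earlier results of these data known. Summed counts were tested with edgeR 4.0.16 (R 4.3.3; TMM factors, quasi-likelihood F test, Benjamini-Hochberg adjustment over all genes tested, threshold 0.05), with library as a block for chosen against other cells and group alone for 4OHT against corn oil; genes low in counts were removed with edgeR's filter. The labels say that 2 mice were used per condition, so libraries are the replicates, and p-values rest on 2 per group. With 1 library left out, 4OHT against corn oil and the interaction compare 1 library with 2. The spread then comes from 1 group alone, so calls of those fits are no firmer than those of the full fit. Shares were compared with an exact permutation test (scipy 1.17.1, Python 3.11.15). The tests were tried on simulated counts first.

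The genes named were the 7 of the score, Tfap2c, the 25 highest and 15 lowest by log2 fold change with an adjusted p under 0.05, a mean of at least 20 CPM over the 8 sums and 1 direction in all 4 libraries, the interferon pathway lists, and the 4 largest changes of each other list; for 4OHT against corn oil they were the 5 smallest p and the interferon lists. Acta2, Krt5, Trp63, Cxcl14, Slc2a1, B2m and Bst2 were named after their values were seen where the rule did not give them. Genes with close copies may share reads. Alternatives were DESeq2 1.42.0, other filters, scaling, limits of the score, cell filters, thinned counts, libraries left out in turn and the replicate number as a block. Where cells were left out by depth or by UMIs of marker genes, the top 5% was chosen anew among the rest.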

Additional observations from a re-analysis of the deposited data

Results flagged for a closer look

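For 99 of 9328 genes the difference between chosen and other basal cells itself differed between the 4OHT-labelled and corn oil-labelled libraries. The test was an interaction term in edgeR's quasi-likelihood fit, and 10 of these genes are described here. All are on the log2 scale, positive where the value in chosen against other cells was higher in the 4OHT-labelled libraries. Procr, the protein C receptor, had 4.42; it stood at 3.66, 9.80, 363 and 35.4 CPM in the chosen cells and at 5.17, 17.3, 12.8 and 13.2 CPM in the others. Without cells that have an endothelial, fibroblast or mural UMI it had 0.25 (edgeR adjusted p = 0.998), and without 4OHT replicate 1 it had 1.91 (adjusted p = 0.569). Ndufa4l2 had 5.45, with 5.49, 4.90, 112 and 113 CPM in the chosen cells and 146, 136, 55.1 and 68.9 CPM in the others. Ero1l had 2.24 and Ndrg1 2.20. Both were lower in the chosen than in the other cells in all 4 libraries, and less so in the 4OHT-labelled ones: Ndrg1 stood at 143, 62.5, 356 and 368 CPM against 1842, 1265, 1081 and 1167 CPM. Tsc22d1 had -1.58, with 1693, 2267, 657 and 1416 CPM in the chosen cells and 751, 1334, 1387 and 1329 CPM in the others. Cxcl10 had 2.33; the call was lost with the DESeq2 Wald test (adjusted p = 0.999), without corn oil replicate 2 (1.29) and without 4OHT replicate 1 (0.64). Oasl2 had 1.22, with the call lost without corn oil replicate 1 (1.22, adjusted p = 0.119), corn oil replicate 2 (1.21, adjusted p = 0.185) or 4OHT replicate 1 (0.98, adjusted p = 0.207). Bst2 had 0.91, with the call lost without corn oil replicate 1 (0.74), corn oil replicate 2 (1.08), 4OHT replicate 1 (0.84) or cells that have an endothelial, fibroblast or mural UMI (0.62, adjusted p = 0.537), and with the DESeq2 Wald test (1.0, adjusted p = 0.121). Usp18 had 1.37, with the call lost without corn oil replicate 1 (1.27), corn oil replicate 2 (1.48) or 4OHT replicate 2 (1.23). Socs3 had -2.07 and remained called in the 9 alternatives run.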

How the results depend on the processing

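For chosen against other basal cells, 772 genes were higher with the top 2.5% chosen. Without cells having a luminal keratin UMI (33 cells chosen anew), 108 were higher and 226 lower. Total-UMI scaling gave 2586 higher and 919 lower. Leaving out 1 library gave 659 to 1274 higher and 1154 to 1654 lower. With the DESeq2 Wald test, 4OHT against corn oil gave 14 higher and 24 lower genes in all basal cells, 7 and 2 in the others, 11 and 4 in the chosen cells and 5 and 2 in luminal cells; for the interaction 35 and 5. Leaving out 1 library gave 9 to 61 and 8 to 66, 3 to 39 and 0 to 24, 0 to 38 and 0 to 19, 4 to 14 and 4 to 7, and 25 to 74 and 9 to 40, in the same order. Genes with a negative interaction numbered 21 with total-UMI scaling and 26 without cells having an endothelial, fibroblast or mural UMI; without those cells 0 genes were higher with 4OHT in the chosen cells. The share difference ran from -8.59 to -3.87 percentage points in basal and from -2.91 to -0.615 in luminal cells with 1 library left out, and was -3.25 and -10.5 with the top 2.5% and 10% chosen.

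The labels number the replicates alike in both groups but do not say that a number marks a shared batch. Deviations of same-numbered libraries from their group means had a correlation of 0.559. With 2 libraries per group the deviations of a group are equal and opposite, so both replicate numbers give this same value. It is therefore a single value and cannot show that a number marks a shared batch. With the replicate number as a block, 74 genes were higher and 93 lower in all basal cells, 18 and 11 in the others, 6 and 3 in the chosen cells and 8 and 3 in luminal cells, all 7 genes of the score, Irf7 (-1.88, adjusted p = 0.00196), Oasl2 and Ctla2a being called in all basal cells, and the share difference was -6.23 percentage points.

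Of 2690 values of single genes under an alternative, 7 changed sign: Jak1 had -0.083 with the top 2.5% and -0.86 without luminal keratin cells, Stat3 -0.16 in the latter, Trp63 -0.22 with the top 2.5%, Acta2 0.21 with total-UMI scaling, and Tfap2c over all basal cells 0.10 without corn oil replicate 1 and 0.10 without 4OHT replicate 1 (from -0.28 to 0.10 with 1 library left out). A call was lost in 75 and gained in 68. Arl4d, Myd88, Irf2, Ptpn2 and Igfbp3 lost theirs without luminal keratin cells. Total-UMI scaling, the luminal comparison and the cell exclusions by endothelial, fibroblast and mural UMIs were chosen after seeing the data. Depth limits the low genes: a gene with 0 UMIs in the chosen cells may reach 1.82 CPM.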
